A study of Mus musculus with 4 samples.

Results

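A set of 10 marker genes of fetal liver and liver tumours was followed across livers of wild-type and PEPCK-TAg mice: Afp, Gpc3, H19, Igf2, Dlk1, Golm1, Cd24a, Wfdc2, Scd2 and Mest. Every probe set whose only gene symbol in the platform annotation was one of these names was taken, with no filter on signal, which gave 12 of the 12422 probe sets on the array that are not controls. They cover 9 of the 10 genes, with 2 probe sets each for Afp, Igf2 and Scd2. H19 had no such probe set, because the only one that carries its name is also annotated to Mir675, and that probe set is described apart from the members. The genes themselves were chosen with results of these data known.

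The livers came from male B6SJL hybrid mice, 58 to 60 days old, which had been weaned onto a diet of 10% protein and 70% carbohydrate and kept on it for 4 weeks. The 2 wild-type arrays were from animals without a transgene, and the 2 PEPCK-TAg arrays from animals in which the promoter of Pck1, a gluconeogenic gene active in liver and kidney, drives large T and small t of SV40. Large T binds the retinoblastoma proteins and p53, and small t binds the phosphatase PP2A. Total RNA of whole liver was hybridised, so the share of cells that expressed the antigens is not known from these data, and more cells of a type cannot be told apart from more RNA per cell. The labels speak of duplicate measurements and do not state how many animals stand behind an array, so p-values reflect the spread of these 4 hybridisations alone, and that spread may be technical. Albumin (Alb), the main secreted product of hepatocytes, read 16723 and 14430 in wild type against 13339 and 12446 in PEPCK-TAg.

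Fetal hepatocytes make a set of proteins that the adult liver largely stops making in the weeks after birth, and several return in hepatocellular tumours and during regeneration. Some of the genes are imprinted, meaning that the copy from 1 parent is silenced, and act on fetal growth. Others are made mainly by bile duct, progenitor or injured cells and serve as tissue or serum markers of liver disease.

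The upstream sequences of the called members are shown here because those genes rose together, with that of Afp, the classical fetal marker, beside them. Each is the 250 bases before the annotated transcript start, 5′ to 3′ on the gene's own strand, from RefSeq on GRCm38.p6. That source held an entry for 7 of the 10 genes and none for H19, Cd24a or Scd2. Several starts were listed for Wfdc2 (2), Mest (3) and Igf2 (4), and only the first listed was used. The windows of their other starts were not read and may differ. Capitals mark matches, on either strand, to the letters GCGGGAA of an E2F-type motif, GGGCGG of the GC box, TGANTCA of the AP-1 motif, TATAAA of the TATA box, CCAAT of the box named after them or GTTAAT of the HNF1 core, and matches that overlap run together.
Gpc3, chrX:52613975-52614224, minus strand: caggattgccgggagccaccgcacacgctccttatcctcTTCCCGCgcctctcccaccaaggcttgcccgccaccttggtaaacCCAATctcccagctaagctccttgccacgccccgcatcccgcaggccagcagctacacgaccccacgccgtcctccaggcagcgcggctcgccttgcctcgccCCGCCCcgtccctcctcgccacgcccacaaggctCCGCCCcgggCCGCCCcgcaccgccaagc
Golm1, chr13:59675785-59676034, minus strand: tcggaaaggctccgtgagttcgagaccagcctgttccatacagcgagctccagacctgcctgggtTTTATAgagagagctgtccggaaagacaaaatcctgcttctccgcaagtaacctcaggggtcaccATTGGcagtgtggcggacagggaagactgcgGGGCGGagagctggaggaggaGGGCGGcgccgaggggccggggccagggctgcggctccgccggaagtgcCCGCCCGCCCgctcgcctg
Wfdc2, chr2:164562465-164562714, plus strand: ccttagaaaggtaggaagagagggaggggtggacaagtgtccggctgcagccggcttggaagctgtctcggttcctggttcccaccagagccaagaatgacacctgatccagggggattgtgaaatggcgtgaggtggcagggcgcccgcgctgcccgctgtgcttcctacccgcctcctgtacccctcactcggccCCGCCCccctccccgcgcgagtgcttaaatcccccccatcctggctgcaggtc
Afp, chr5:90490464-90490713, plus strand: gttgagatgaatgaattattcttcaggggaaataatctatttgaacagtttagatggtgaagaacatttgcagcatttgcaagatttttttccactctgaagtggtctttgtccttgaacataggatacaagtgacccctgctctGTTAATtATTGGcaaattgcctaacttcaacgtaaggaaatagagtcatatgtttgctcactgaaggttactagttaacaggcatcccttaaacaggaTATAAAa
The windows of Gpc3, Golm1 and Wfdc2 were 71.6%, 65.6% and 64.8% G or C with 25, 20 and 14 CpG dinucleotides, against 36.0% and 1 for Afp and a median of 52.0% and 6 over 27025 genes. GC box letters occurred at 3 places in Gpc3, 4 in Golm1 and 1 in Wfdc2, and in 32.9% of all windows. Besides Afp, the members with an entry that did not pass were Mest, Dlk1 and Igf2. Their windows were 60.8%, 54.8% and 50.8% G or C with 7, 8 and 1 CpG dinucleotides. Mest held GC box letters at 1 place, while Dlk1, Igf2 and Afp held none. The E2F-type letters, found in 3.84% of all windows, occurred in Gpc3 alone of the members with an entry, starting 211 bases before the start. The Afp window held the HNF1 core, 105 bases before the start and present in 6.52% of windows. It also held CCAAT letters on the other strand, 98 bases before the start (34.5% of windows), and a TATA box (13.0%). CCAAT letters also occurred in Gpc3 and Golm1, and TATA letters in Golm1. No AP-1 letters (6.87% of windows) were found in any of the 7. A match is a description of letters and not a measured binding site.

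Of the 12 probe sets, 5 were higher in PEPCK-TAg by limma with a Benjamini-Hochberg adjusted p under 0.05, against 2.76% of all 12422 probe sets. They read Gpc3, Golm1, Wfdc2 and Scd2, the last with both of its probe sets. None of the 12 was lower, where 0.877% of all probe sets were, and at an unadjusted p under 0.05 there were 7 higher and 0 lower. That threshold is loose. With 1 as the offset added before the logarithm, 7 of the 12 and 2424 of all 12422 probe sets were under it in either direction. With 4 times the reported offset these were 7 and 2390. Counts of list genes at an unadjusted p, given further on, have the same background. For 8 of the 12, each PEPCK-TAg array exceeded each wild-type array, as for 26.5% of all probe sets, and for 0 of the 12 each fell short of each wild-type array, as for 23.5%. Over the whole array 343 probe sets were higher and 109 lower, or 255 and 194 with each array centred on its median, which moves the median change of all probe sets from 0.01 to -0.14. The median log2 change of the 12 was 0.93. Cd24a, Dlk1, Mest, Afp and Igf2 did not pass the threshold on any probe set. No probe set on the array passed, member or not, when either wild-type array was left out. The count of members was then 0, with adjusted p of the 5 between 0.140 and 0.201 without wild-type replicate 1 and between 0.117 and 0.177 without replicate 2, and 1978 and 2314 of all probe sets had an unadjusted p under 0.05. With an array left out, the spread comes from the other group alone, and the lone array is assumed to vary like it.

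**Figure D1:**
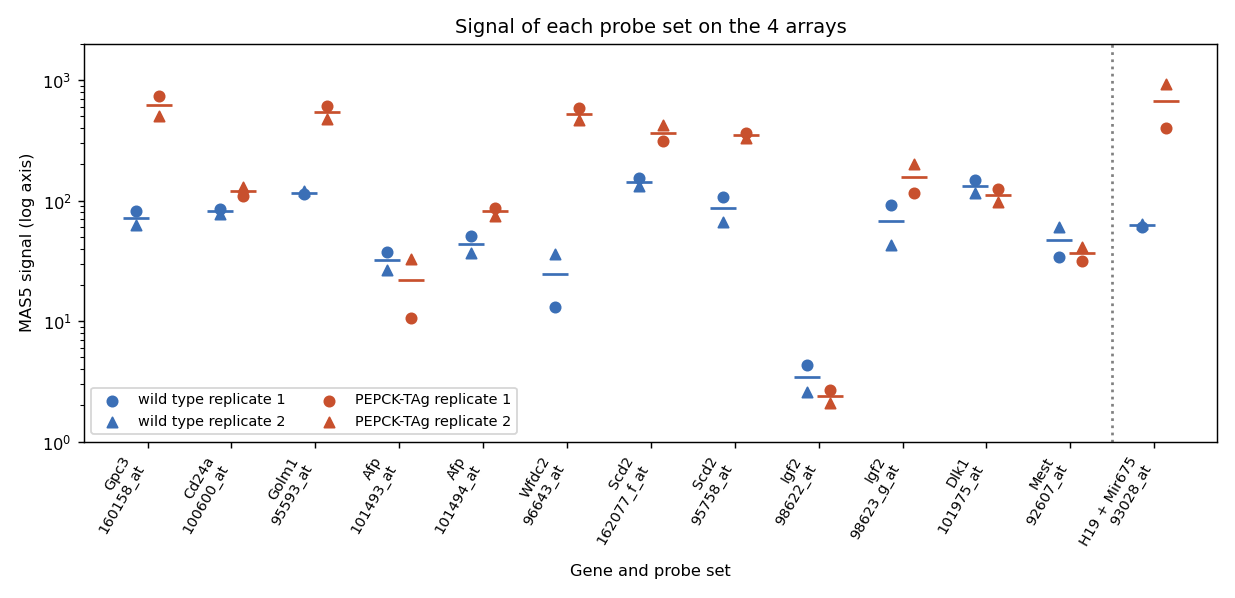
MAS5 signal (log axis) of each member probe set on the 2 wild-type (blue) and 2 PEPCK-TAg (orange) arrays, with horizontal bars at the group means; the probe set right of the dotted line carries both H19 and Mir675. For Gpc3, Golm1, Wfdc2 and Scd2 both PEPCK-TAg points stand clear above both wild-type points, while those of Dlk1, Mest and one probe set each of Afp and Igf2 overlap.

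Among the fetal secreted and surface proteins, Gpc3 rose and Afp did not pass. Gpc3 encodes glypican 3, a heparan sulfate proteoglycan anchored to the cell surface that is abundant in fetal liver and is used as a tissue marker of hepatocellular carcinoma. Wild-type arrays gave it a signal of 81.6 and 63.2, and PEPCK-TAg arrays 742 and 505. The lowest PEPCK-TAg value was thus far above the highest wild-type value, and the ratio of group means was 8.61. The log2 change was 2.89 ± 0.24 (SE; limma, Benjamini-Hochberg adjusted p = 0.00926), the 46th largest rise among 12422 probe sets. Of 12 other glypican, syndecan and heparan sulfate genes on the array, 0 passed the limma threshold and 0 had an unadjusted p under 0.05, with a median log2 change of -0.14.

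Afp encodes alpha-fetoprotein, the albumin-like carrier of fetal serum. Its brighter probe set, 101494_at, read 50.6 and 36.7 in wild type against 87.5 and 75.3 in PEPCK-TAg. These groups did not overlap, but the signals lie near the 43.8th percentile of mean signal and the log2 change of 0.75 ± 0.28 (SE) did not pass (limma, Benjamini-Hochberg adjusted p = 0.235; 95% interval 0.04 to 1.46). The other probe set, 101493_at, read 37.2 and 26.8 in wild type against 10.6 and 33.0 in PEPCK-TAg, so its groups overlapped. Its log2 change of -0.45 had a 95% interval of -1.42 to 0.53, which spans 0, and was 0.04 without PEPCK-TAg replicate 1, so its direction was not settled. The upper limit of the brighter probe set's interval lies below the lower limit for Gpc3, 2.28, although the difference between the genes was not itself tested.

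Regulators that silence Afp after birth or drive it were read next. Of 15 such genes on the array, 0 passed the limma threshold, 2 higher and 2 lower had an unadjusted p under 0.05, and the median log2 change was 0.11, or -0.03 with median centring. Zbtb20, which encodes a zinc finger repressor of Afp in adult liver, read 346 and 304 in wild type against 392 and 315 in PEPCK-TAg, with a log2 change of 0.11 (limma, Benjamini-Hochberg adjusted p = 0.793), or -0.03 with median centring. No probe set carried the symbol of Zhx2, another postnatal repressor of Afp, by itself. Of 18 genes of the differentiated hepatocyte, 0 passed, 8 were lower and 0 higher at an unadjusted p under 0.05, and their median was -0.37. That median was -0.52 with median centring, -0.11 with quantile normalization and -0.10 with cyclic loess. For 14 of the 18 PEPCK-TAg lay below wild type without overlap and for 0 above, against 23.5% and 26.5% of all probe sets.

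**Figure D2:**
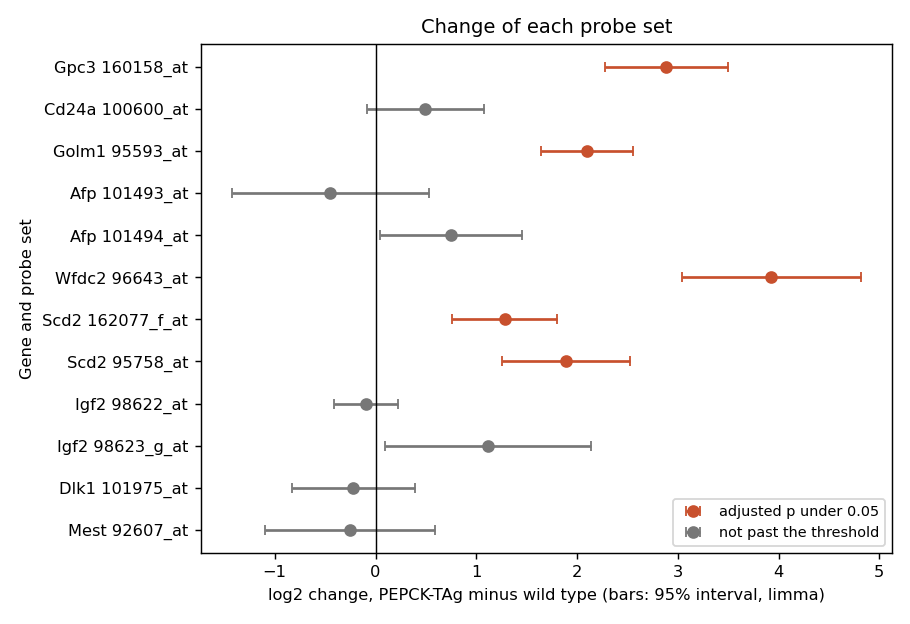
Log2 change of each member probe set, PEPCK-TAg minus wild type, with 95% intervals from limma; orange points passed an adjusted p of 0.05 and grey points did not. The 5 orange points lie between 1.28 and 3.93, and the intervals of Cd24a, Dlk1, Mest and 1 probe set each of Afp and Igf2 span 0.

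None of the imprinted members passed the threshold. Igf2 encodes insulin-like growth factor 2, the main fetal growth factor made by liver. Its probe set 98623_g_at, whose suffix marks probes shared within a group of transcripts, read 92.2 and 43.2 in wild type against 116 and 201 in PEPCK-TAg. The groups did not overlap, yet each spread widely, and the log2 change of 1.12 ± 0.41 (SE) did not pass (limma, Benjamini-Hochberg adjusted p = 0.225; 95% interval 0.09 to 2.14). Its other probe set, 98622_at, annotated to the same source transcript, read 4.30 and 2.60 in wild type against 2.70 and 2.10 in PEPCK-TAg. That is the 2.66th percentile of mean signal, near the floor of the array, and its groups overlapped (log2 change -0.10, 95% interval -0.41 to 0.22).

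Dlk1 encodes a membrane protein with epidermal growth factor repeats that marks hepatoblasts. It read 149 and 115 in wild type against 125 and 97.5 in PEPCK-TAg, so the groups overlapped, with a log2 change of -0.22 (limma, Benjamini-Hochberg adjusted p = 0.700; 95% interval -0.83 to 0.39). Mest, which encodes an enzyme of the alpha/beta hydrolase fold expressed in embryonic mesoderm, read 34.0 and 60.1 in wild type against 31.4 and 41.5 in PEPCK-TAg. Its groups overlapped as well, and the log2 change of -0.25 (limma, Benjamini-Hochberg adjusted p = 0.754; 95% interval -1.10 to 0.59) turned to 0.07 without wild-type replicate 2. For both genes the interval leaves out a rise as large as that of Scd2 on its lower probe set, 1.28.

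The probe set that carries both H19 and Mir675 is no member, and it was singled out after its values were seen. H19 is a maternally expressed noncoding RNA of fetal liver, and in the RefSeq annotation Mir675 lies inside the H19 gene. H19 and Igf2 both lie on chromosome 7, where, apart from Mir675, only the annotated gene Gm33148 starts between them. The signal was 60.5 and 64.5 in wild type against 400.4 and 936 in PEPCK-TAg. Wild type was tight while the PEPCK-TAg arrays differed widely, and still the groups were far apart. The log2 change was 3.06 ± 0.39 (SE; limma, Benjamini-Hochberg adjusted p = 0.0244), the 35th largest rise on the array. Without wild-type replicate 1 the adjusted p was 0.202, without replicate 2 it was 0.160, and with no variance trend 0.0555. Which of the transcripts gave the signal cannot be told apart.

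Of 18 other imprinted genes on the array, 1 was higher and 0 lower, with a median log2 change of 0.16, and at an unadjusted p under 0.05 there were 2 higher and 1 lower. The gene that rose was Sgce, which encodes a sarcoglycan of the cell membrane, from 293 ± 30.8 to 774 ± 119 (SD, n = 2), by 1.36 ± 0.17 (log2, SE; limma, Benjamini-Hochberg adjusted p = 0.0228). It was not called without PEPCK-TAg replicate 1 (adjusted p 0.0879) or without the variance trend (adjusted p 0.0608). Of 14 genes of the insulin-like growth factor axis, 0 were higher and 2 lower, with a median of -0.31. Igfbp2, which encodes a binding protein for these factors that is itself high in fetal liver, fell from 2920 ± 938 to 256 ± 112 (SD, n = 2), by 3.48 on the log2 scale (limma, Benjamini-Hochberg adjusted p = 0.0131). Ghr, the growth hormone receptor gene, fell by 0.96 on the log2 scale on one probe set (limma, Benjamini-Hochberg adjusted p = 0.0377) and by 0.77 on the other, which did not pass (adjusted p = 0.0573). The Ghr call was lost without PEPCK-TAg replicate 1 (adjusted p 0.0962) or 2 (adjusted p 0.150), with quantile normalization (adjusted p 0.0565) and without the variance trend (adjusted p 0.0975).

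Golm1 and Wfdc2 rose and Cd24a did not pass, among the markers associated with tumours and injured epithelium. Golm1 encodes a membrane protein of the Golgi, known as a serum marker in liver disease. It read 113 and 120 in wild type against 609 and 475 in PEPCK-TAg. Both groups were narrow relative to the distance between them, with a ratio of means of 4.67. The log2 change was 2.10 ± 0.18 (SE; limma, Benjamini-Hochberg adjusted p = 0.00926). Of 18 other genes of the Golgi and the secretory path, 0 passed, 2 were lower and 0 higher at an unadjusted p under 0.05, and the median was -0.10.

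Wfdc2 encodes a small secreted protein with whey acidic protein domains, best known as an ovarian tumour marker. Wild-type arrays gave it a signal of 13 and 36.3, and PEPCK-TAg arrays 593 and 464. The wild-type values are dim and differ from each other, and both PEPCK-TAg values lie far above them, with a ratio of means of 21.4. The log2 change was 3.93 ± 0.36 (SE; limma, Benjamini-Hochberg adjusted p = 0.0108), the 9th largest rise among 12422 probe sets and the largest among the members in each setting that tested it. The size depends on the offset added before the logarithm, with 4.52 at an offset of 1 and 2.96 at 4 times the reported offset. Of 6 other genes with such domains or for related protease inhibitors, 0 passed, with 2 higher and 0 lower at an unadjusted p under 0.05 and a median of 0.15.

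Cd24a encodes a heavily glycosylated surface protein of immature blood cells, bile duct cells and liver progenitors. It read 85.4 and 77.5 in wild type against 110 and 130 in PEPCK-TAg. The groups did not overlap, and the log2 change of 0.49 ± 0.23 (SE) did not pass (limma, Benjamini-Hochberg adjusted p = 0.328; 95% interval -0.09 to 1.07).

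Scd2 encodes a stearoyl-CoA desaturase, the isoform prominent in fetal liver and brain, whereas Scd1 is the form of adult liver. Probe set 95758_at read 108 and 65.9 in wild type against 367 and 329 in PEPCK-TAg, and 162077_f_at read 154 and 132 in wild type against 311 and 423 in PEPCK-TAg. Both probe sets placed the groups apart in the same direction, and the suffix of the latter marks probes that can match a family of similar sequences. The log2 changes were 1.89 ± 0.26 and 1.28 ± 0.21 (SE; limma, Benjamini-Hochberg adjusted p = 0.0274 and 0.0407). Neither was called without PEPCK-TAg replicate 1 (adjusted p 0.107 and 0.0803) or 2 (adjusted p 0.0854 and 0.158), or without the variance trend (adjusted p 0.0551 and 0.0806). The call of 162077_f_at was also lost with 4 times the offset, quantile normalization, cyclic loess and the replicate number as a block (adjusted p of 0.0551, 0.0591, 0.0528 and 0.0503 in that order).

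None of the related lipid genes was called higher with Scd2. Scd1, named after its values were seen, read 13139 and 12143 in wild type against 8855 and 10679 in PEPCK-TAg on its brightest probe set. Its log2 change was -0.38 there (limma, Benjamini-Hochberg adjusted p = 0.358), -0.37 on a second bright probe set and 0.04 on a dim probe set with signals from 3.70 to 15.5. The 95% interval of the brightest probe set, -0.85 to 0.10, does not meet that of either Scd2 probe set, the nearer of which begins at 0.76. With quantile normalization and cyclic loess the change of Scd1 was -0.02 and -0.03. Of 11 desaturase, elongase and fatty acid synthesis genes, Scd1 included, 0 were higher and 3 lower, with a median of -0.85 and 8 lower at an unadjusted p under 0.05. These 3 were Elovl3, a fatty acid elongase gene (-3.35 ± 0.53, log2 change ± SE), the elongase gene Elovl5 (-1.02 ± 0.16) and the malic enzyme gene Me1 (-0.94 ± 0.13), whose Benjamini-Hochberg adjusted p by limma were 0.0377, 0.0377 and 0.0293. Me1 and Elovl5 were not called without either PEPCK-TAg array (adjusted p from 0.0874 to 0.177), Elovl5 not with quantile normalization or cyclic loess (adjusted p 0.0796 and 0.0683), and Elovl3 not with an offset of 1 (adjusted p 0.0526). None of the 3 was called without the variance trend (adjusted p from 0.0722 to 0.0855).

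**Figure D3:**
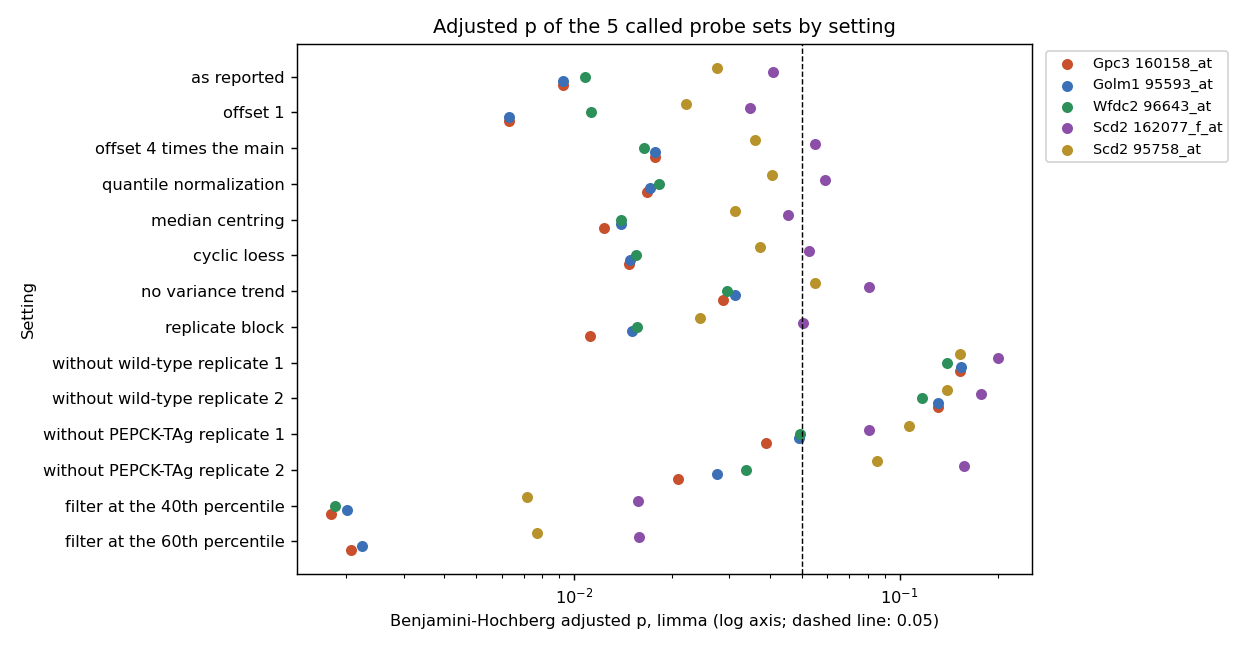
Benjamini-Hochberg adjusted p from limma (log axis, dashed line at 0.05) of the 5 called probe sets under the reported setting and the alternatives on the rows, of which those that leave out an array use no filter on signal. Gpc3, Golm1 and Wfdc2 lie left of the line except where a wild-type array is left out in this way, and Scd2 crosses it under several settings; Wfdc2 was not tested with the filter at the 60th percentile.

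Other genes linked with liver tumours and preneoplasia rose in part. Of 28 on the array, 8 were higher and 0 lower, with a median log2 change of 0.98, and at an unadjusted p under 0.05 there were 16 higher and 2 lower. Those of smallest p were Lcn2, an iron-carrier binding protein gene (4.45 ± 0.24, log2 change ± SE), Stmn1, which encodes a tubulin-binding protein (3.67 ± 0.31), the phosphatase gene Cdkn3 (3.43 ± 0.30) and the topoisomerase gene Top2a (3.69 ± 0.35), with limma Benjamini-Hochberg adjusted p from 0.00499 to 0.0117. Lcn2 and Stmn1 each had another probe set that did not share the rise, with changes of 0.05 and -0.33. The one of Stmn1 read at most 13.8 on any array, near the floor, and the one of Lcn2 read at least 105. Cdkn3 and Top2a were near the floor in wild type, with a mean signal of 4.10 and 5.75 over the 2 arrays, and their log2 changes, both 5.05 at an offset of 1, were 2.01 and 2.29 at 4 times the reported offset. Stmn1, Cdkn3 and Top2a are also genes of dividing cells. Of 15 genes of fetal glycolytic and metabolic isoforms, 0 passed, with 6 higher and 2 lower at an unadjusted p under 0.05 and a median of 0.26. Of 14 genes of the Notch system, to which Dlk1 is related, 1 was higher and 0 lower, with a median of 0.01 that was -0.13 with median centring, -0.08 after quantile normalization and -0.03 after cyclic loess. That gene was the ligand gene Dll1, with 1.52 ± 0.27 (log2 change ± SE; limma, Benjamini-Hochberg adjusted p = 0.0497) on one probe set and -0.01 on the other, which read at most 3.40. Its call was lost without PEPCK-TAg replicate 1 or 2 (adjusted p 0.151 and 0.193), with 4 times the offset (0.0507), quantile normalization (0.0682), median centring (0.0606), cyclic loess (0.0630) and the replicate number as a block (0.0622).

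Markers of other cells that could carry these transcripts were measured beside the members, and their part in the results was not tested. Of 10 bile duct and progenitor markers on the array, out of 15 listed, 1 was higher, Sox4, with a median log2 change of 0.00, or -0.15 with median centring. Summed over the list, signal was 572 and 768 in wild type against 550 and 717 in PEPCK-TAg, so the groups overlapped. The largest share in wild type was that of the aquaporin gene Aqp1, with 313 and 476 against 125 and 307 in PEPCK-TAg. The sums lean on this gene and do not describe the list as a whole. At an unadjusted p under 0.05 there were 2 higher, Sox4 and the claudin gene Cldn4 (log2 change 0.89, limma, Benjamini-Hochberg adjusted p = 0.255), and 0 lower, while PEPCK-TAg stood clear above wild type for 4 of the 10 and clear below for 4. The defining bile duct keratin gene Krt19 read 5 and 2.90 in wild type against 2.80 and 2.90 in PEPCK-TAg, Krt7 15.9 and 10.8 against 8 and 9.40, and Epcam 9.20 and 3.30 against 2.90 and 12.7, all near the floor of the array. These 3, Aqp1 and Cldn4 did not pass and were named after their values were seen, the 3 as defining markers. Sox4, a transcription factor gene of progenitors and other cells, rose by 1.42 ± 0.23 (log2, SE; limma, Benjamini-Hochberg adjusted p = 0.0391), with 0.71 on its other probe set (adjusted p = 0.180). Sox4 was not called without PEPCK-TAg replicate 1 or 2 (adjusted p 0.185 and 0.128), with 4 times the offset (0.0533), quantile normalization (0.0621), median centring (0.0516), cyclic loess (0.0531) or the replicate block (0.0501).

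Among the marker lists, that of dividing cells had the largest median change. Of 17 such genes on the array, out of 20, 13 were higher and 0 lower, with a median of 2.60, and summed signal was 1557 and 1474 in wild type against 11990 and 9254 in PEPCK-TAg. Mki67, a marker of dividing cells, read 5.80 and 8.70 in wild type against 672 and 431 in PEPCK-TAg on 1 probe set, with no such rise on its other (a log2 change of -0.27). For macrophages 2 of 11 were higher and 0 lower, Mpeg1 and Cd14, with a median of 1.03 and sums of 2694 and 4824 in wild type against 9350 and 12210 in PEPCK-TAg. Mpeg1 rose on its bright probe set alone, the other reading at most 2 on any array, and Cd14 was not called without PEPCK-TAg replicate 2 (adjusted p 0.0846) or without the variance trend (adjusted p 0.0722).

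The remaining lists cover blood cells, which can carry Cd24a, and mesenchymal and endothelial cells, which can carry Dlk1 and Mest. For neutrophils and granulocytes 1 of 13 was higher and 0 lower, S100a8, with a median of 0.23 and sums of 671 and 580 in wild type against 926 and 875 in PEPCK-TAg, and S100a8 was not called without PEPCK-TAg replicate 1 or 2 (adjusted p 0.132 and 0.112). For erythroid cells 1 of 15 was higher and 0 lower, Car2, with a median of 0.10 (-0.04 with median centring) and overlapping sums of 4334 and 5331 in wild type against 4663 and 4207 in PEPCK-TAg. The erythroid sums lean on the transferrin receptor gene Tfrc, with 2423 and 1813 in wild type against 2005 and 1797 in PEPCK-TAg. They do not describe that list as a whole. The Car2 call was lost with quantile normalization (adjusted p 0.0526) and without the variance trend (adjusted p 0.0722). The erythroid list had 1 higher and 2 lower at an unadjusted p under 0.05, and the neutrophil list 3 higher and 1 lower. By limma, 0 of 14 lymphocyte markers passed (median 0.07, or -0.08 with median centring, with 2 higher and 1 lower at an unadjusted p under 0.05), as did 0 of 14 stellate cell and fibroblast markers (median 0.28, with 3 higher and 0 lower) and 0 of 11 endothelial markers (median -0.24, with 0 higher and 2 lower). Sums of the stellate list overlapped, with 4464 and 4062 in wild type against 4155 and 5632 in PEPCK-TAg, while those of the endothelial list were lower in PEPCK-TAg without overlap, with 3135 and 3353 in wild type against 2048 and 2978. The endothelial sums lean on the endoglin gene Eng, with 1837 and 1715 in wild type against 1006 and 1470 in PEPCK-TAg. Gene by gene, 4 of the 11 were lower without overlap and 1 higher. No marker in these lists had a signal of 0 on all 4 arrays.

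**Figure D4:**
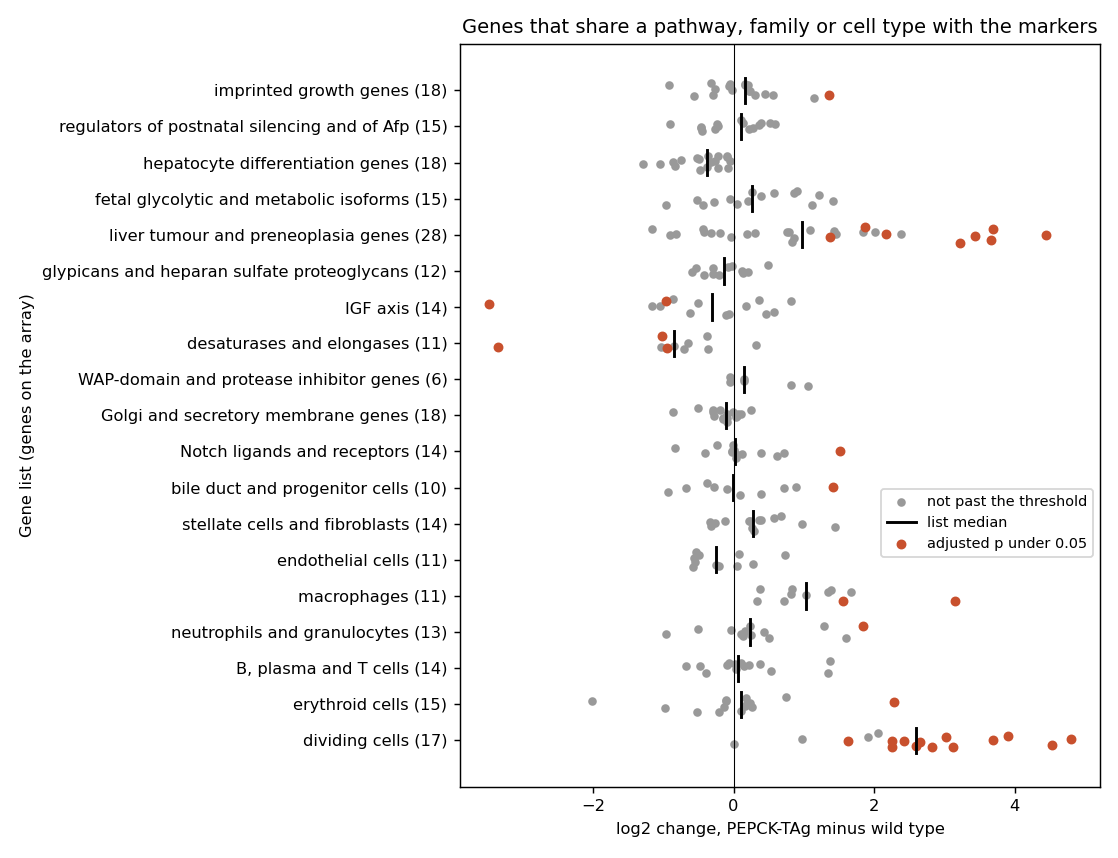
Log2 change, PEPCK-TAg minus wild type, of each gene (points) in 19 lists of genes that share a pathway, family or cell type with the markers, a gene being read by its brightest probe set; black bars are list medians and orange points passed an adjusted p of 0.05. The list of dividing cells lies furthest right, with a median of 2.60, and that of desaturases and elongases furthest left, with -0.85.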

How the data were processed

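Livers were profiled on 4 Affymetrix MG_U74Av2 arrays, 2 for each genotype, grouped by the sample titles. The deposited values are MAS5 signal intensities on a linear scale, per the submitters' processing notes, and the sources used here do not give the software version, scaling target or detection calls. With 2% of probe sets trimmed at either end, the mean was 250.2 on every array, so no further scaling was applied. Per the file headers, all arrays shared 1 chip lot, station, hybridization and day of scanning, while module and scan time differed on each, so no batch could be tested. Names came from the platform annotation, and the Entrez identifiers of all 12 member probe sets gave the same symbol in RefSeq (GRCm38.p6).

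Of 12488 probe sets, 66 controls were left out. Analysis used log2(signal + 12.5), with 5% of that trimmed mean as the offset, a scale that understates changes of dim genes. All 12422 were fitted in limma 3.58.1 under R 4.3.3 (lmFit, then eBayes with a trend; 2 residual and 3.63 prior degrees of freedom), two-sided, with Benjamini-Hochberg adjustment and a threshold of 0.05. An exact permutation test of 2 against 2 cannot go below 0.333 and was not run. No filter was used because the members are defined without one, and 9 of the 12 lie above the 40th percentile of mean log2 signal. List genes were read by their brightest probe set. All members were reported, and in each list at most the 4 passing genes of smallest p, besides Alb, Mki67, Igfbp2, Zbtb20 and Zhx2. Outside this rule, Scd1, Krt19, Krt7, Epcam, Cldn4, Aqp1, Eng and Tfrc, which did not pass, were named after their values were seen. Members and lists were chosen with earlier results of these data known. Alternatives were other offsets, filters and normalizations, no variance trend, a replicate block and leaving out each array. Precision is limited by there being 4 arrays.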

Additional observations from a re-analysis of the deposited data

How the results depend on the processing

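The 5 called members kept their direction under each alternative that tested them, and their calls were all lost when either wild-type array was left out with no filter on signal. Leaving out 1 array in turn, the members called higher numbered 0 to 3, all probe sets called numbered 0 to 122 higher and 0 to 32 lower, and list genes called (27 higher and 5 lower as reported) numbered 0 to 21 higher and 0 to 4 lower. With the filter at the 40th percentile and an array left out, an alternative chosen after seeing the data, members called higher numbered 4 or 5 and list genes called lower 5 to 12. In both kinds of run the spread comes from the group with 2 arrays, whose variation the lone array is assumed to share, and Wfdc2 passes that filter only through its PEPCK-TAg signal, so these counts are no support for the calls. Without the variance trend 3 members, 162 of all probe sets higher (343 as reported), 13 lower (109 as reported) and 1 list gene lower were called. All probe sets called lower numbered 72 with 4 times the offset, 229 and 236 with the filter at the 40th and 60th percentile, where 477 and 353 were higher, 70 with quantile normalization, 194 with median centring, where 255 were higher, and 67 with cyclic loess. List genes called lower numbered 11 and 14 with these filters, 3 with quantile normalization, 8 with median centring and 12 with the replicate block. The causes were not tested, beyond fewer probe sets under the filters and fewer arrays when 1 is left out.

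Counting genes in place of probe sets gave 4 higher members, and leaving out probe sets with other suffixes also gave 4. Over the 12 members, 158 values kept direction and side of the threshold, 21 lost a call and 2 changed sign: Afp 101493_at (from -0.94 to 0.042 with an array left out, above 0 without PEPCK-TAg replicate 1) and Mest (from -0.58 to 0.066, above 0 without wild-type replicate 2). Gpc3 ranged from 2.44 to 3.16, Golm1 from 1.82 to 2.27 and Wfdc2 from 2.96 to 4.52. Left out of the test were 3 member probe sets with the filter at the 40th percentile and 8 with that at the 60th. Titles number the arrays of each group 1 and 2, with nothing that says the numbers mark pairs. Deviations of like-numbered arrays correlated at 0.13, and the replicate block called 4 members, 359 of all probe sets higher and 139 lower.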

Other observations

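The PEPCK-TAg arrays did not rank the members alike. Replicate 1 was the brighter for Gpc3 (742 and 505), Golm1 (609 and 475) and Wfdc2 (593 and 464), and replicate 2 for the probe set of H19 and Mir675 (400.4 and 936) and Igf2 98623_g_at (116 and 201). Scd2 was split, with 367 and 329 on 95758_at and 311 and 423 on 162077_f_at. These are single arrays with no test between them.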
